A study of Mus musculus with 4 samples.

Results

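The effector cytokines of activated group 2 innate lymphoid cells (ILC2s) are described here by 10 genes, Il5, Il13, Il9, Il4, Il6, Il24, Il10, Il2, Csf2 and Areg, taken from the deposited table by their gene names. All 10 were found among the 22554 genes of the table, and all 10 were among the 17650 genes tested. RNA came from sorted lung ILC2s of mice aged 6 weeks, labelled BALB/c (wild-type BALB/cByJ in the study's methods), a lymphocyte population without antigen receptors that was gated as lineage-negative, CD45+, CD127+ and ST2+. Both groups were cultured with IL-2, IL-7 and IL-33, overnight by the labels. The study's results give a full day with or without 5D for the sequenced cells, which they call activated. Its methods for ILC2 culture add IL-33 only after a full day with 5D, IL-2 and IL-7. The order of IL-33 and 5D in these libraries is thus uncertain. Every library represents activated cells, and no resting ILC2s were part of the comparison. The vehicle group (labelled as the control, 2 libraries) received no compound, and the 5D group (2 libraries) received compound 5D, a naphthylamino-trichloroethyl furamide that blocks the Orai calcium channels of the plasma membrane. The labels do not say whether the libraries of a group came from separate animals, so the p-values measure only the spread between these libraries, which may be technical.

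ILC2s answer the epithelial alarmin IL-33 within hours by secreting type 2 cytokines, without prior contact with antigen. IL-5 feeds eosinophils, IL-13 and IL-4 act on airway epithelium, smooth muscle and B cells, IL-9 sustains ILC2s and mast cells, GM-CSF (the product of Csf2) acts on myeloid cells, and amphiregulin (Areg) is a ligand of the epidermal growth factor receptor that promotes epithelial repair. In lymphocytes, calcium entry through Orai channels activates the phosphatase calcineurin, which dephosphorylates NFAT and lets it enter the nucleus, where it binds cytokine promoters at the core GGAAA, often beside AP-1. Cytokine mRNAs are also known for AU-rich elements, repeats of ATTTA in the 3′ untranslated region, which are bound by RNA-binding proteins that shorten or extend the life of the mRNA.

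Each library held 20096513 to 28697196 counts, with the 5D libraries the deeper ones. All 10 of the ILC2 markers examined were above 1 TPM (the transcript level per length, with counts divided by exon length and scaled to the same sum in each library), and their summed level was 3989 to 4236 TPM. Of the other cells that make these cytokines, T cells were represented mainly by Cd3g at 19.1 to 21.6 TPM, while Cd4 was at 0 counts in every library. Of 10 mast cell and basophil markers, 6 passed 1 TPM, the whole list summed to 40.5 and 32.6 TPM with vehicle and to 36.6 and 50.2 TPM with 5D, and Ms4a2 and Mcpt4 were at 0 counts in every library. Kit led this list at a mean of 19.7 TPM, with a log2 fold change of -0.134. The mast cell tryptase gene Tpsb2 had 10 and 25 counts with vehicle and 31 and 161 with 5D. The value of 161 came from the second 5D library alone. Its log2 fold change was 2.03 (unadjusted p = 0.0118 in edgeR's test). Gata2, Fcer1a, Hdc, Cpa3 and Cma1 were also higher with 5D, by 1.26, 1.1, 0.813, 0.246 and 0.237 on the log2 scale. Only Mcpt8 (-0.639) and Kit were lower. Apart from Tpsb2, none of these had an unadjusted p under 0.05 in that test. Mcpt8 had 30 and 9 counts with vehicle and 24 and 7 with 5D, and Fcer1a had 20 and 11 against 25 and 61. The lineage gate of the study removed cells stained for CD3e, CD5, T cell receptors or the IgE receptor chain FcεRIα, and the part of any remaining such cells in the cytokine levels was not tested.

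The promoters of Il9, Il5 and Il13 are shown because NFAT is the calcium-dependent factor known at these genes and because these mRNAs were, among the type 2 cytokines, the one that differed most between the groups and the ones at the highest levels. The windows are from RefSeq on GRCm38.p6 (the mm10 assembly) and hold 250 bases before and 50 bases after the annotated start, written 5′ to 3′ on the strand of the gene. Capitals mark GGAAA or its complement TTTCC (the NFAT core), TGANTCA (AP-1) and AGATAA or its complement (GATA).
Il9 promoter (chr13:56482208-56482507, minus strand): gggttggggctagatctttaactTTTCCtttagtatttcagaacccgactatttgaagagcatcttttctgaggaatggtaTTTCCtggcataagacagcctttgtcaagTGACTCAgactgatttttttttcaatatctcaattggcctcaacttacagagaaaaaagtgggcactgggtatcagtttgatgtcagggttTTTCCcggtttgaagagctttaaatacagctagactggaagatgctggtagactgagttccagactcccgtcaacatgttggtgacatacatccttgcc
Il5 promoter (chr11:53720544-53720843, plus strand): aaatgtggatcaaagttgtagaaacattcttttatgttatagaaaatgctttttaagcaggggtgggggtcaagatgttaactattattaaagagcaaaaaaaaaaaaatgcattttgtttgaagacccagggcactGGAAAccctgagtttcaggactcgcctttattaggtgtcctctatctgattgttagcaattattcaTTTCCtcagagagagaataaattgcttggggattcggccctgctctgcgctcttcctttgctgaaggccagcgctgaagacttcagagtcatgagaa
Il13 promoter (chr11:53634653-53634952, minus strand): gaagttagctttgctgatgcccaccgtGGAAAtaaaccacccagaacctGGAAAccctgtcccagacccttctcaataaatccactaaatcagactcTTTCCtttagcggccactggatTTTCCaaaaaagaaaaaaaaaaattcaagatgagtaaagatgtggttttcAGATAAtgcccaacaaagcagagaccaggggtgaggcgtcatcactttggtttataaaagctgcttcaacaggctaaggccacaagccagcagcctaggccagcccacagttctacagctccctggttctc

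The Il9 window held 3 NFAT cores and 1 AP-1 motif, that of Il5 held 2 NFAT cores, and that of Il13 held 4 NFAT cores and 1 GATA motif. A window was at hand for 8 of the 10 genes, and Il10 and Il24 had no entry in the table used. At least 1 GGAAA core stood in all 8, where 61.4% of all 32841 promoter windows of the same length held one on either strand. At least 2 cores stood in 7 of the 8 against 26.7% of all windows, and at least 3 in 5 of the 8 (Il13, Il9, Il4, Il6 and Csf2) against 9.42%. The AP-1 motif TGANTCA was found in the windows of Il9 and Il6 and in 7.81% of all windows. AGATAA was found in those of Il13 and Csf2 and in 11.2% of all windows. For Il4 the window with the most cores was counted, and for Csf2 the RefSeq start lay upstream of the GENCODE start, so that its window ended before the latter. A match describes the letters of a window and was not a measurement of binding.

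The second shared feature lay at the other end of the transcripts. Stretches of 30 bases after the stop codon, each chosen as a window with the most ATTTA repeats (in capitals) of that transcript, are shown for 5 of the genes, read 5′ to 3′ on the gene's strand from GENCODE M21 transcripts on mm10.
Il9 (chr13:56479329-56479358, minus strand): agatgctATTTAttctATTTAttgaATTTA
Csf2 (chr11:54247329-54247358, minus strand): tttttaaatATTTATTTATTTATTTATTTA
Il2 (chr3:37121040-37121069, minus strand): ctATTTATTTAaatATTTAactttaATTTA
Areg (chr5:91148369-91148398, plus strand): ataATTTATTTAatATTTAagtgttATTTA
Il5 (chr11:53724105-53724134, plus strand): gataccatatgctgtttccATTTAtATTTA

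Each of these windows lay within a single exon, in the 3′ untranslated region. Csf2 had the most repeats after its stop codon, 9 in 317 bases, and Il9 had the highest density, 3 in 86 bases or 34.9 per kilobase. All 10 cytokine genes had at least 2 repeats, against 44.4% of 12766 tested coding genes, and 9 of them (all but Il4) had at least 3, against 32.7%. The density in the 10 genes ran from 4.05 per kilobase in Il13 to 34.9 in Il9, where the median of 12473 genes was 1.17. Both Il9, the cytokine with the largest difference between the groups, and Csf2, the one with the opposite sign, stood at the top of this range.

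The levels of the 10 mRNAs spanned more than 3 orders of magnitude within each library. Il5 was at 8920 and 8697 TPM with vehicle and at 8302 and 8505 TPM with 5D. At a mean of 8606 TPM over the 4 libraries it ranked 4 among the 22085 genes with a length, behind only Tmsb4x, Actb and Ftl1, which encode thymosin beta, actin and ferritin light chain. Csf2 followed at a mean of 1321 TPM (rank 88), then Il13 at 409 TPM (rank 405) and Areg at 381 TPM (rank 445). A middle group was formed by Il10 at 68.9 TPM, Il4 at 48.4 TPM, Il24 at 40.4 TPM and Il9 at 34.6 TPM. The place of Il9 differed between the groups, since with vehicle it averaged 52.2 TPM, beside 49.0 for Il4 and 45.1 for Il24, and with 5D 16.98 TPM, beside 47.7 and 35.8. Il6 at 2.08 TPM and Il2 at 1.47 TPM closed the order, at ranks 11414 and 12214.

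**Figure D1:**
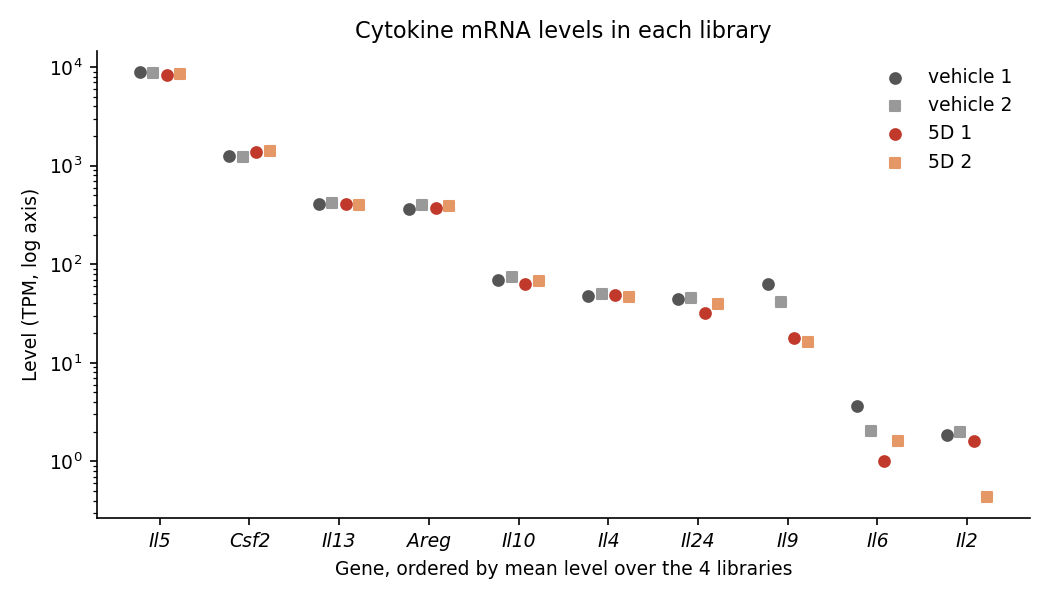
Levels of the 10 cytokine mRNAs in TPM on a log axis, ordered by their mean, with 1 point for each of the 2 vehicle (grey) and 2 5D (red and orange) libraries. Il5 stands above all others at 8302 to 8920 TPM, and Il9 is the gene whose lower vehicle point is more than 2-fold above its higher 5D point.

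The steps of this order were of unequal size. Il5 was 6.52-fold above Csf2, Csf2 was 3.23-fold above Il13, Areg was 5.53-fold above Il10, and Il9 was 16.7-fold above Il6. The ranges over the 4 libraries overlapped for Il13 and Areg, for Il24 and Il9, and for Il6 and Il2, so those neighbours were not separated. The order of Il10 and Il4 depended on the length assigned to Il4, whose 4 annotated transcripts cover 1227 bases of exon together while the longest has 605. With the longest transcript as length, Il4 stood at 74.3 TPM and above Il10 at 52.2 TPM.

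Summed over the 10 genes, cytokine mRNA took 1.12% and 1.10% of all TPM with vehicle and 1.06% and 1.09% with 5D. Il5 alone made up 79.8% and 79.3% of that sum with vehicle and 78.2% and 78.1% with 5D. Without Il5, the remaining 9 genes summed to 2260 and 2266 TPM with vehicle and to 2320 and 2379 TPM with 5D. Of these 9, only Csf2 was higher on average with 5D, at 1251 and 1229 TPM with vehicle and 1380 and 1421 TPM with 5D. Each of the others had a lower mean with 5D, so the higher sum with 5D was that of Csf2. The cytokine mRNA of these cells was therefore mostly that of Il5 in both groups.

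Of the 10 genes, 1 (Il9) was lower with 5D at an adjusted p under 0.05 by edgeR (quasi-likelihood test, p-values adjusted by Benjamini-Hochberg across the table), where 0.068% of all genes were, and 0 were higher. At an unadjusted p under 0.05, 4 were lower (Il9, Il6, Il24 and Il5), where 3.84% of all genes were, and 1 was higher (Csf2), where 3.5% of all genes were. In 7 of the 10, the higher 5D library lay below the lower vehicle library in CPM (counts normalised to library size, not to length), which held for 18.8% of all genes. The median log2 fold change of 5D against vehicle was -0.12 over the 10 genes and near 0 over all genes tested, and 9 of the 10 were below 0 against 50.4% of all genes. In bulk RNA, fewer cells that express a gene and less mRNA per cell cannot be told apart.

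**Figure D2:**
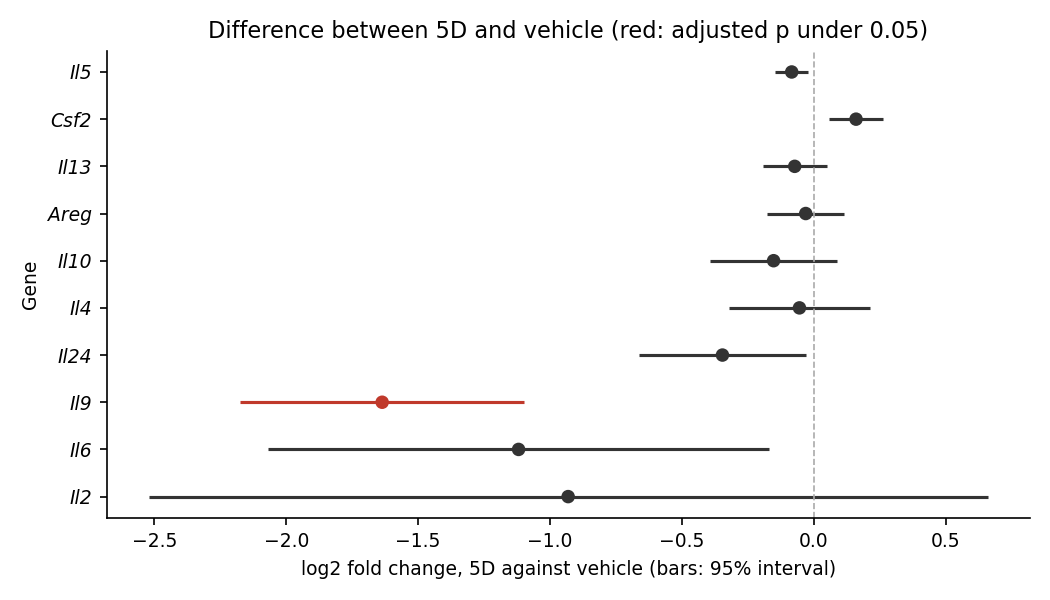
Log2 fold change of 5D against vehicle for each cytokine gene (points) with the 95% interval (bars) from edgeR's quasi-likelihood fit on 2 libraries a group, in the order of mean level. Il9, in red, passed the adjusted test at -1.64, the intervals of Il5, Il24 and Il6 lie below 0 without passing it, and that of Csf2 lies above 0.

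Il9 encodes the cytokine through which ILC2s sustain themselves and mast cells, and lies on chr13:56479277-56482246 (minus strand, gene ENSMUSG00000021538.3, 5 exons). It had 271 and 157 counts with vehicle and 89 and 86 counts with 5D. On the normalised scale these were 11.7 and 7.85 CPM with vehicle and 3.28 and 3.01 CPM with 5D, or 9.76 ± 2.70 and 3.14 ± 0.192 (mean ± SD, n = 2 each). The groups did not overlap, the 5D libraries lay close together, and the vehicle libraries differed from each other more than in any gene of comparable level among the 10. Il9 fell by 67.8% with 5D (95% interval 53.3% to 77.9% lower), a log2 fold change of -1.64 with a standard error of 0.25, unadjusted p = 3.022e-05 and adjusted p = 0.03137 in edgeR's test. The adjusted p was 0.0517 without the first and 0.109 without the second 5D library, 2.13e-08 at the lowest without the second vehicle library, and 0.0761 with all libraries thinned to the smallest total.

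**Figure D3:**
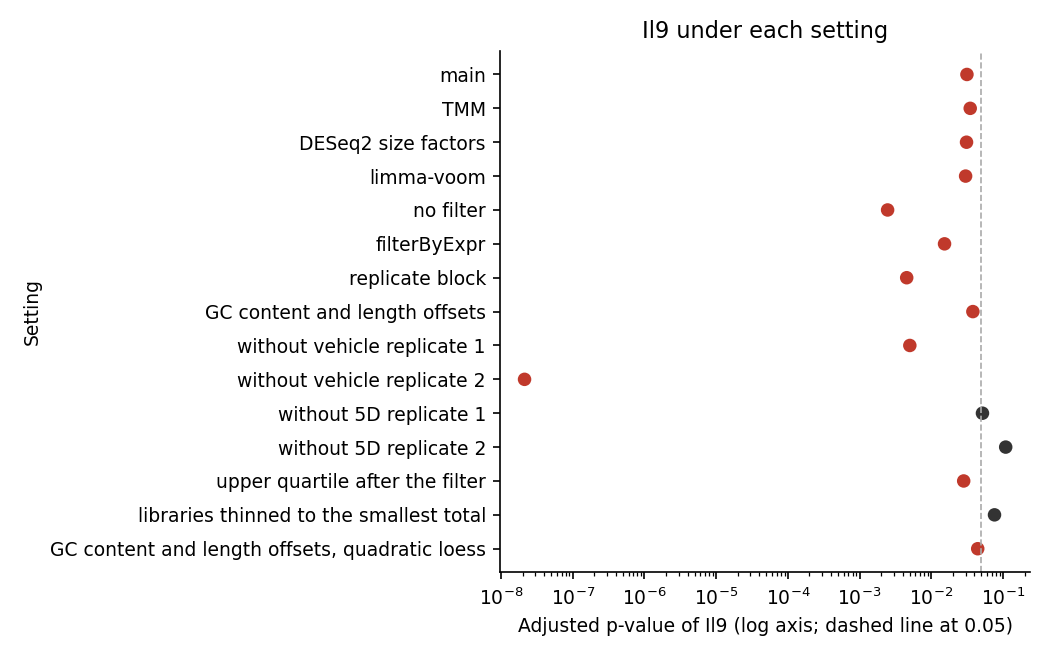
Adjusted p-value of Il9 (log axis) in the reported fit, labelled main, and in each alternative that gave one, with a dashed line at 0.05. Of the 14 alternatives, 11 are below the line, and the 3 above it leave out a 5D library or thin the libraries.

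Within a library, ratios of 2 cytokine levels do not depend on how libraries are scaled. Il9 stood at 0.152 and 0.0986 of the level of Il13 with vehicle and at 0.0438 and 0.0408 with 5D. Against Il4, the ratio of Il9 was 1.31 and 0.830 with vehicle and 0.366 and 0.345 with 5D. The height of the ratio to Il4 depends on the length assigned to Il4, its mean over the 4 libraries being 0.713 with the union of exons and 0.351 with the longest transcript. The 5D mean was 0.3325 times the vehicle mean, a comparison that no gene length can move. The 95% interval of the log2 fold change of Il9 (-2.18 to -1.10) did not overlap those of Il5, Il13, Il4, Il24, Il10, Csf2 or Areg, but it overlapped those of Il6 and Il2, and differences between the cytokines themselves were not tested.

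Il5, Il13 and Il4 are the signature type 2 cytokine genes and share one locus with Rad50 on chromosome 11, where Il13 and Il4 lie 12.7 kb apart and Il5 lies 86.1 kb from Il13. Il5 (chr11:53720794-53725106, plus strand, ENSMUSG00000036117.2) was at 4752 and 4710 CPM with vehicle and at 4377 and 4548 CPM with 5D, or 4731 ± 29.96 and 4463 ± 121 (mean ± SD, n = 2 each). Both 5D libraries were below both vehicle libraries, and the gap between the groups was about as wide as the spread between the 5D libraries. The difference was -5.67% (95% interval -9.68% to -1.49%, unadjusted p = 0.01271 and adjusted p = 0.5525 in edgeR's test). Without the first 5D library, the log2 fold change moved from -0.08 to -0.06 (unadjusted p = 0.0935 and adjusted p = 0.789 in edgeR's test). Il5 had at least 94256 counts in every library. The antisense gene Gm12214 shares 417 bases of exon with Il5 and had 203 to 253 counts. These amounted to at most 0.215% of the counts of Il5 in a library. Whether reads of the 2 genes were separated there is unknown, since the strand setting of the counting was not given. The part of antisense reads in the counts of Il5 was not tested.

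Il13 (chr11:53631324-53634702, minus strand, ENSMUSG00000020383.1) was at 173 and 179 CPM with vehicle and at 168 and 166 CPM with 5D. Again both 5D libraries were the lower ones, by a margin smaller than the spread within the vehicle group. The difference was -4.93% with a 95% interval from -12.6% to 3.37% (edgeR adjusted p = 0.8428), so that a decrease of more than 12.6% lay outside the interval and a small one inside it. Il4 (chr11:53602982-53618669, minus strand, ENSMUSG00000000869.12) was at 20.4 and 21.6 CPM with vehicle and at 20.5 and 19.97 CPM with 5D. Its groups overlapped, and its log2 fold change was -0.05 (95% interval -0.32 to 0.21, edgeR adjusted p = 0.964).

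The proportions between these cytokines varied little. The ratio of Il5 to Il13 in TPM was 21.6 and 20.7 with vehicle and 20.4 and 21.5 with 5D. That of Il13 to Il4 was 8.61 and 8.41 with vehicle and 8.37 and 8.44 with 5D. With the longest transcript as the length of Il4, the mean of the latter ratio over the 4 libraries was 4.17 in place of 8.46. The groups overlapped in both ratios, and the 5D mean was 0.992 and 0.988 times the vehicle mean.

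Csf2 encodes GM-CSF and lies on the same chromosome, 522.2 kb from Il5 (chr11:54247271-54249667, minus strand, ENSMUSG00000018916.5). It was at 347 and 346 CPM with vehicle and at 379 and 396 CPM with 5D, or 347 ± 0.283 and 387 ± 11.9 (mean ± SD, n = 2 each). It was the only cytokine gene of the 10 in which both 5D libraries lay above both vehicle libraries. The difference was 11.7% (95% interval 4.16% to 19.8%), a log2 fold change of 0.16 with a standard error of 0.05, unadjusted p = 0.004974 and adjusted p = 0.4868 in edgeR's test. All 15 alternatives kept the sign and an unadjusted p under 0.05, and none of them reached the adjusted threshold, the adjusted p running from 0.133 to 0.862.

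The ratio of Csf2 to Il5 was 0.140 and 0.141 with vehicle and 0.166 and 0.167 with 5D, and that of Csf2 to Il13 was 3.03 and 2.92 with vehicle and 3.39 and 3.60 with 5D. In both ratios the groups stood apart, with the 5D libraries higher. Csf2 shares 96 bases of exon with the antisense gene Gm12223, whose counts were 45 and 47 under vehicle and 98 and 91 under 5D. These amounted to at most 0.953% of the counts of Csf2 in a library. The strand setting of the counting was not given, and the part of antisense reads in the counts of Csf2 was not tested.

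**Figure D4:**
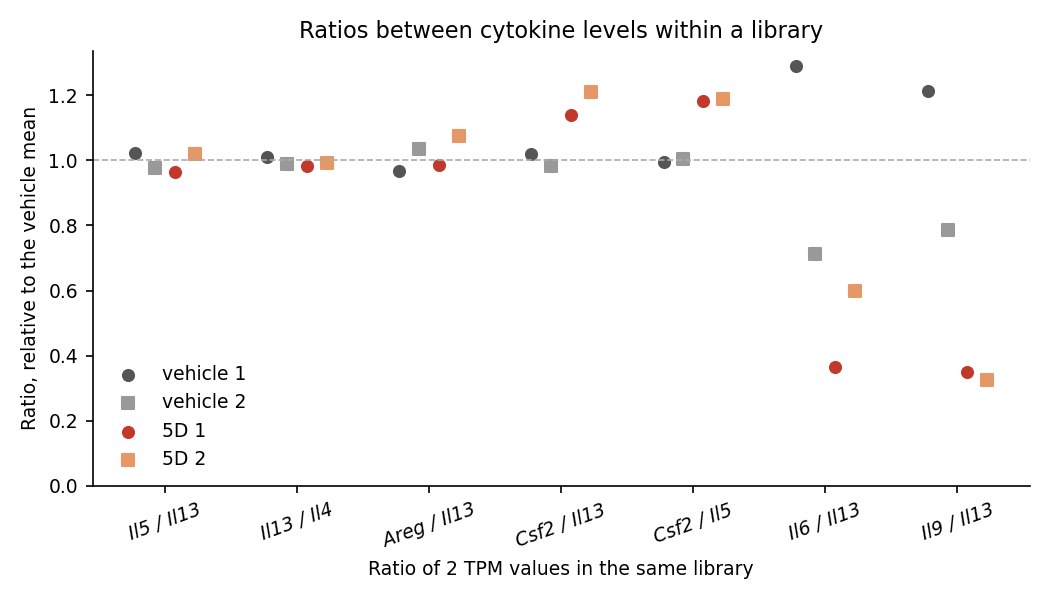
Ratios of the TPM values of 2 cytokine genes in the same library, each divided by its mean in the 2 vehicle libraries, so that 1 (dashed line) is the vehicle mean. Il5 to Il13 and Il13 to Il4 stay near 1 in all 4 libraries, both ratios of Csf2 are higher with 5D, and Il9 to Il13 is lower in both 5D libraries.

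Areg, the repair-associated growth factor (chr5:91139599-91148432, plus strand, ENSMUSG00000029378.5), was at 154 and 171 CPM with vehicle and at 153 and 165 CPM with 5D. The groups overlapped, with 1 library of each near 154 and 1 higher. Its log2 fold change was -0.03 (95% interval -0.18 to 0.11, edgeR adjusted p = 0.9607), and its sign turned when the second vehicle or the first 5D library was left out.

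Il10 and Il24 belong to one cytokine family and lie 132.4 kb apart on chromosome 1. Il10, the immunoregulatory cytokine of the pair (chr1:131019845-131024974, plus strand, ENSMUSG00000016529.5), was at 31.5 and 34.6 CPM with vehicle and at 28.5 and 30.9 CPM with 5D. Its groups stood apart by less than the spread within either, and its log2 fold change was -0.15 (95% interval -0.39 to 0.09, edgeR adjusted p = 0.8274). Il24, which signals through receptors on epithelial cells (chr1:130882074-130887454, minus strand, ENSMUSG00000026420.16), was at 21.5 and 22.2 CPM with vehicle and at 15.1 and 19.2 CPM with 5D. Both 5D libraries were lower, the first clearly more so. The log2 fold change was -0.35 (95% interval -0.66 to -0.03, unadjusted p = 0.03379 and adjusted p = 0.6312 in edgeR's test). It was -0.19 without the first 5D library (unadjusted p = 0.271 and adjusted p = 0.912 in edgeR's test) and -0.53 without the second. The ratio of Il10 to Il24 was 1.55 and 1.65 with vehicle and 1.99 and 1.70 with 5D, groups that were close to each other without overlapping.

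Il6 and Il2 had few counts and wide intervals. Il6, a pleiotropic inflammatory cytokine (chr5:30013114-30019981, plus strand, ENSMUSG00000025746.11), had 71 and 35 counts with vehicle and 23 and 39 counts with 5D. After normalisation this gave 3.06 and 1.75 CPM under vehicle and 0.847 and 1.36 CPM under 5D, and both 5D libraries were the lower ones. The log2 fold change was -1.12 (95% interval -2.07 to -0.17, unadjusted p = 0.02466 and adjusted p = 0.5983 in edgeR's test), and it ranged from -1.5 to -0.66 when 1 library was left out. The unadjusted p of Il6 was 0.248 without the first vehicle library and 0.139 without the first 5D library (adjusted p = 0.78 and 0.847 in edgeR's test). Il2, a growth factor that the medium already supplied (chr3:37120523-37125959, minus strand, ENSMUSG00000027720.7), had 17 and 16 counts with vehicle and 17 and 5 counts with 5D. Its interval ran from -2.52 to 0.66 on the log2 scale (edgeR adjusted p = 0.8467), and a change of the size seen in Il9 could not be told from none in these libraries. A stretch of 207 bases of Il2 matched transcripts of Ntan1 at 99.5% identity, so that some of its few counts may be shared.

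A search for genes with the pattern of Il9 over the 4 libraries compared 9836 genes of at least 5 CPM by the distance between their centred log2 CPM values. The closest were Lif, Maml2, Hist2h2ac, Tnfrsf26 and Llgl2, at distances from 0.748 to 0.814. Lif, which encodes leukaemia inhibitory factor of the IL-6 family, was at 18.6 and 18.8 CPM with vehicle and at 10.6 and 9.93 CPM with 5D. Its log2 fold change of -0.87 had an edgeR adjusted p of 0.0642. All 5 genes were picked for the pattern of Il9, so their lower values with 5D follow from that choice. Hist2h2ac, a histone gene, was at 11.5 and 11.8 CPM with vehicle and at 6.63 and 6.47 CPM with 5D. None of the 5 passed the adjusted test, and likeness over 4 libraries says nothing of shared control.

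Of 47 other cytokines and growth factors, 26 could be tested. With 5D, 4 were lower and 2 higher at an unadjusted edgeR p under 0.05, against 3.84% and 3.5% of all genes. In the edgeR adjusted test 0 passed, and the median log2 fold change of the 26 was -0.05. Beside Lif, Tgfb1 (a regulatory cytokine, 267 CPM with vehicle and 225 with 5D on average, log2 fold change -0.25, edgeR adjusted p = 0.171) and Osm (oncostatin M, 113 and 93.9 CPM, -0.26, edgeR adjusted p = 0.366) were lower, and Il16, a chemoattractant for CD4-bearing cells, was higher (90.5 and 102 CPM, 0.17, edgeR adjusted p = 0.612). Il21 had 9 and 1 counts with vehicle and 0 with 5D, and Il15 had 1 and 0 counts with vehicle and 4 and 12 with 5D, too few for a fold change. Il22, at a mean of 66.3 TPM among the 3 highest of the list, had overlapping groups.

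The receptors for the 10 cytokines were described because ILC2s respond to several of their own products. Of 19 receptor genes, 14 were tested. At an unadjusted edgeR p under 0.05, 4 had lower and 0 had higher levels, against 3.84% and 3.5% of all genes. In the edgeR adjusted test 0 passed, and the median log2 fold change of the 14 was -0.16. Il2ra, the high-affinity chain of the IL-2 receptor, was at a mean of 2144 CPM with vehicle and 1822 with 5D (log2 fold change -0.23, unadjusted p = 0.000129 and adjusted p = 0.0878 in edgeR's test). Il2rb, Il4ra and Il10ra were lower by 0.16, 0.17 and 0.21 on the log2 scale. Il2rg, the common chain of the IL-2, IL-4, IL-7, IL-9 and IL-21 receptors, was at 656 CPM with vehicle and 657 with 5D. Il9r, the receptor chain for IL-9, was at 110 and 111 CPM, a log2 fold change of 0.00 (edgeR adjusted p = 0.997).

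All 25 transcription factors known at these cytokine genes were tested, and 0 passed the edgeR adjusted test. At an unadjusted edgeR p under 0.05, 3 were lower and 0 higher, against 3.84% and 3.5% of all genes. Gata3, the master regulator of the type 2 genes, was at 1095 CPM with vehicle and 1101 with 5D. The 3 lower ones were the AP-1 members Batf (98.7 and 86.9 CPM) and Junb (251 and 223 CPM) and the repressor Prdm1 (72.4 and 58.5 CPM). Their log2 fold changes ran from -0.31 to -0.17. The NFAT genes Nfatc1, Nfatc2 and Nfatc3 had log2 fold changes of -0.11, -0.08 and -0.03, none at an unadjusted p under 0.05. These are mRNA levels, and the entry of NFAT protein into the nucleus was not measured here.

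Among 18 RNA-binding proteins that act on cytokine mRNAs, 0 passed the edgeR adjusted test. At an unadjusted edgeR p under 0.05, 1 had a lower and 1 a higher level, near the 3.84% and 3.5% of all genes. The higher one was Zc3h12a, which encodes the endonuclease regnase-1 (11.6 CPM with vehicle and 14.9 with 5D, log2 fold change 0.36, edgeR adjusted p = 0.624), and the lower one its relative Zc3h12c (17.9 and 13.3 CPM, -0.43, edgeR adjusted p = 0.566). The genes of the tristetraprolin family, Zfp36, Zfp36l1 and Zfp36l2, whose products bind ATTTA repeats, had log2 fold changes of -0.09, 0.11 and -0.02. The most abundant of the list, Pcbp1, Ythdf2 and Khsrp, had log2 fold changes of -0.06, 0.02 and -0.03. Of 5 genes for the release of amphiregulin from the cell surface, 0 passed the edgeR adjusted test. At an unadjusted edgeR p under 0.05, 0 had lower and 3 had higher levels, against 3.84% and 3.5% of all genes. The 3 higher ones included the sheddases Adam17 (139 CPM with vehicle and 157 with 5D) and Adam10 (128 and 146 CPM). The third was the little expressed ADAM17 partner Rhbdf1, with 5 and 10 counts with vehicle and 51 and 22 with 5D. Frmd8, at 131 and 133 CPM the other abundant gene of this list, had overlapping groups.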

How the data were processed

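RNA was measured in 4 libraries of lung ILC2s, 2 with vehicle and 2 with 5D. The authors made cDNA with a kit for low RNA input, sequenced it on a NextSeq 500, aligned the reads with STAR to mm10 (GENCODE M21) and quantified them in Partek. The submitters' processing notes name CASAVA 1.8.2 and STAR 2.6.1. The table as deposited by the authors holds estimated counts of each gene, not yet normalized, and the counting mode and strand setting are not given in the sources used here. The amount of input RNA differs between the labels and the study's methods and is not printed.

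Only 51.5% to 54.6% of a library's values were whole within 1e-09, and 59.3% to 63.0% within 0.01, so values were rounded before testing, although whole counts had been planned for. Counts were fitted in R 4.3.3 with edgeR 4.0.16 (quasi-likelihood, two-sided, upper quartile factors, no covariates, Benjamini-Hochberg over 17650 genes whose normalized counts averaged 1 or more and summed to 10 or more). CPM used the same factors. TPM used the union of annotated exons for 22085 genes, and genes without a length held 0.614% to 0.627% of the counts. Intervals are at 95%. Alternatives used TMM and DESeq2 size factors, DESeq2 1.42.0, limma-voom (limma 3.58.1), other filters, offsets for GC content and length, a replicate block and leaving out each library. Thinning, the upper quartile after the filter and a quadratic loess were chosen after seeing the data. An exact permutation test of 2 against 2 libraries cannot go below p = 0.333 and was not used. Replicates of a group differed beyond sampling noise (chi-square per degree of freedom 5.35 and 5.92) and were counted separately. The fit was tested on simulated data. Near-identical transcripts were searched with BLAST 2.17.0 (at least 95% identity over 150 bases).

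The 10 genes and the gene lists were chosen with earlier results of these data known. List genes are named where their unadjusted p was under 0.05 or where they were among the 3 highest of their list in TPM, and others (Nfatc1, Nfatc2, Nfatc3, Zfp36, Zfp36l1, Zfp36l2 and Il9r) were named after their values were seen. Neighbours are genes within 100 kb of one of the 10. Motifs were counted on both strands.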

Additional observations from a re-analysis of the deposited data

How the results depend on the processing

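Il9 kept its direction in all 14 alternatives that gave an adjusted p, with log2 fold changes from -1.89 to -1.32, and it passed the adjusted threshold in 11 of them. The number of cytokine genes lower at an adjusted p under 0.05 ran from 0 to 1 when 1 library was left out, and was 0 (Il9 lost) without either 5D library and 0 with the libraries thinned to the smallest total, where Il9 stood at -1.74 (edgeR adjusted p = 0.0761). DESeq2 gave no adjusted p for Il9, Il6 and Il2. The number lower at an unadjusted p under 0.05 was 2 with the DESeq2 Wald test and ran from 1 to 4 when 1 library was left out, with 1 (Il9) without the first 5D library. Areg ran from -0.108 to 0.0421 when 1 library was left out, and reversed to 0.0421 without the second vehicle and to 0.0152 without the first 5D library, on the log2 scale. The cause was not tested. The other 9 genes kept their sign in all alternatives. With the longest transcript as length, Il5, Csf2, Il13, Il4, Areg and Il10 moved to 6522, 1001, 310, 74.3, 288.7 and 52.2 TPM. Il24, Il9, Il6 and Il2 moved to 35.9, 26.2, 1.63 and 1.11 TPM. Only Il4, Il24 and Il6 have a longest transcript shorter than their union of exons. The others have the same length either way, and their levels moved because TPM is scaled to a fixed sum. Same-numbered libraries deviated from their group means with a correlation of 0.00877 over 17650 genes. With 2 libraries a group and genes of few counts included, this value cannot show whether the numbers paired them. With the replicate number as a block, Il9 was at -1.61 (edgeR adjusted p = 0.00454) and 4 cytokine genes were lower at an unadjusted p under 0.05. Il2 and Il6 had few counts and widely spread values between libraries. Leaving out a library left 1 in its group, assumed to vary like the other group.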

Other observations

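Of 31 genes within 100 kb of the cytokine genes, 24 were tested. Their median log2 fold change was -0.03, 3 had lower and 1 had higher levels at an unadjusted p under 0.05 (3.84% and 3.5% of all genes did), and 0 passed the edgeR adjusted test. Rad50, the DNA repair gene that lies within the locus of Il5, Il13 and Il4, was at 131 CPM with vehicle and 137 with 5D, and its groups overlapped. Mapkapk2, a kinase known to act on AU-rich mRNAs and a neighbour of the Il10 cluster, was at a mean of 292 CPM with vehicle and 269 with 5D (log2 fold change -0.12, edgeR adjusted p = 0.612). The long noncoding gene A430108G06Rik had 7 and 3 counts with vehicle and 0 with 5D. Tyms, at 191 and 188 CPM, had overlapping groups. The remaining gene of those lower at an unadjusted p was Il21, and the higher one was the antisense gene Gm12223, both described among the cytokines.

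Marker lists of other cells gave small summed levels beside that of ILC2 markers. The NK cell and ILC1 list summed to 141 and 128 TPM with vehicle and to 204 and 151 with 5D. This sum was almost all the granzyme gene Gzma, at a mean of 155 TPM. Of the other markers on that list, Prf1 averaged 1.20 TPM, Ncr1 0.148, Tbx21 0.0590 and Eomes 0.0588. The T cell list summed to 23.1 to 24.5 TPM and the ILC3 list to 54.0 to 80.8 TPM, the latter almost all Il22 at 66.3 TPM. B cell markers summed to 27.6 to 38.4 TPM, mostly Cd79b, and the epithelial list to 36.4 to 38.9 TPM, mostly Epcam. The macrophage, monocyte and dendritic cell list summed to 31.7 to 37.1 TPM, mostly Xcr1 at a mean of 24.2 TPM. Of 4 endothelial markers only Pecam1 was present among the genes of the table, at 7.25 to 10.99 TPM. Of 6 eosinophil markers 2 were present, Ccr3 at 3.41 to 4.38 TPM and Ear2 at 0 counts. Neutrophil markers stood at 0.640 to 1.05 TPM and fibroblast markers at no more than 0.0757 TPM.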
